A study of Mus musculus with 12 samples.

Results

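Fibroblasts of mouse wounds were compared 3 d and 16 h after injury. The 3 d group and the 16 h group held 3 libraries each, from 3 mice each, so that the comparison used 6 of the 12 libraries sequenced, and 14901 of the 25239 genes in the count table had enough counts to be tested. All mice were wild-type male C57BL/6 at 8 weeks of age, and each wounded mouse had full-thickness excisions of the back skin made with a 4 mm biopsy punch. The other 6 libraries came from wounds at 1.5 d and from back skin that was not wounded (NW), 3 mice each. They entered the fit as a shared estimate of the spread, and their levels are given beside those of the 3 d and 16 h groups. Cells were released from minced tissue by enzyme digestion and sorted as live, CD45-negative, CD31-negative and SCA1-positive. CD45 marks leukocytes, CD31 marks endothelium, and SCA1, the product of Ly6a, marks part of the dermal fibroblasts, so that SCA1-negative fibroblasts were not sampled. Each library pools many cells.

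A skin wound passes from inflammation to the building of new tissue within days. Fibroblasts near the injury first release signals that recruit leukocytes, then divide, move into the wound bed and lay down a provisional matrix. Some of them take on contractile fibres of smooth muscle actin and are then called myofibroblasts, cells that pull the wound edges together and deposit collagen. Growth of a resting cell before its first division requires new ribosomes, which are assembled in the nucleolus.

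The 3 d libraries held between 26389453 and 28556445 counts and the 16 h libraries between 26431358 and 31450940, a depth at which 3 counts correspond to between 0.0954 and 0.114 CPM (counts scaled to a common library total). Levels below are CPM after TMM scaling, given for replicates 1, 2 and 3 in that order, and log2 changes are 3 d over 16 h with ± their SE. The labels do not say that a replicate number ties a 3 d mouse to a 16 h mouse, and the libraries were not paired in the fit. A gene is called when its p from edgeR's quasi-likelihood test, adjusted by Benjamini-Hochberg over the 14901 genes, is under 0.05. Ly6a stood at 1211, 1101 and 961 at 3 d, against 1367, 1227 and 1948 CPM at 16 h, while Ptprc, which encodes CD45, stayed at or under 8.71 CPM and Pecam1, which encodes CD31, at or under 1.91 CPM in these 6 libraries. Markers of keratinocytes were not absent. They made up 0.0893%, 0.860% and 1.49% of counts at 3 d, against 1.56%, 0.929% and 1.06% at 16 h, so that 3 d replicate 1 had the smallest share. Libraries correlated more closely within the 3 d group (0.930 to 0.940 on log2 CPM) and within the 16 h group (0.920 to 0.956) than between the groups (0.871 to 0.916), while 3 d replicate 1 lay apart from the other 3 d libraries on the first principal component and 16 h replicate 3 from the other 16 h libraries on the second.

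Of the genes tested, 1420 (9.53%) were called, 873 (5.86%) higher and 547 (3.67%) lower at 3 d than at 16 h. Differences of at least 2-fold were found for 762 of the higher and 331 of the lower genes, and of at least 4-fold for 347 of the higher and 54 of the lower. The called genes that rose were mostly modest in level at 16 h: their median was 46.9 CPM at 3 d, against 13.3 CPM at 16 h, while the genes that fell had a median of 36.6 CPM at 3 d, against 76.3 CPM at 16 h. Libraries of the 2 groups did not overlap for 4845 genes (32.5%). The balance of higher and lower calls depended on scaling: 61.5% of calls were higher with TMM, and 42.0% (703 higher, 971 lower) when libraries were scaled by their total counts alone. The median log2 change of all genes was -0.189 with that scaling and -0.0195 with TMM. The 10 most abundant genes took 15.7% to 23.7% of counts at 3 d, against 9.29% to 14.8% at 16 h. Without 16 h replicate 2, the library whose loss cost most calls, 523 genes were higher and 203 lower. The higher calls were 549 without 3 d replicate 1 and 554 without 3 d replicate 2, and the lower calls were 258 to 331 without any other library. In bulk libraries a change in the share of cells that express a gene and a change in the RNA per cell cannot be told apart, and this holds for every gene below.

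**Figure D1:**
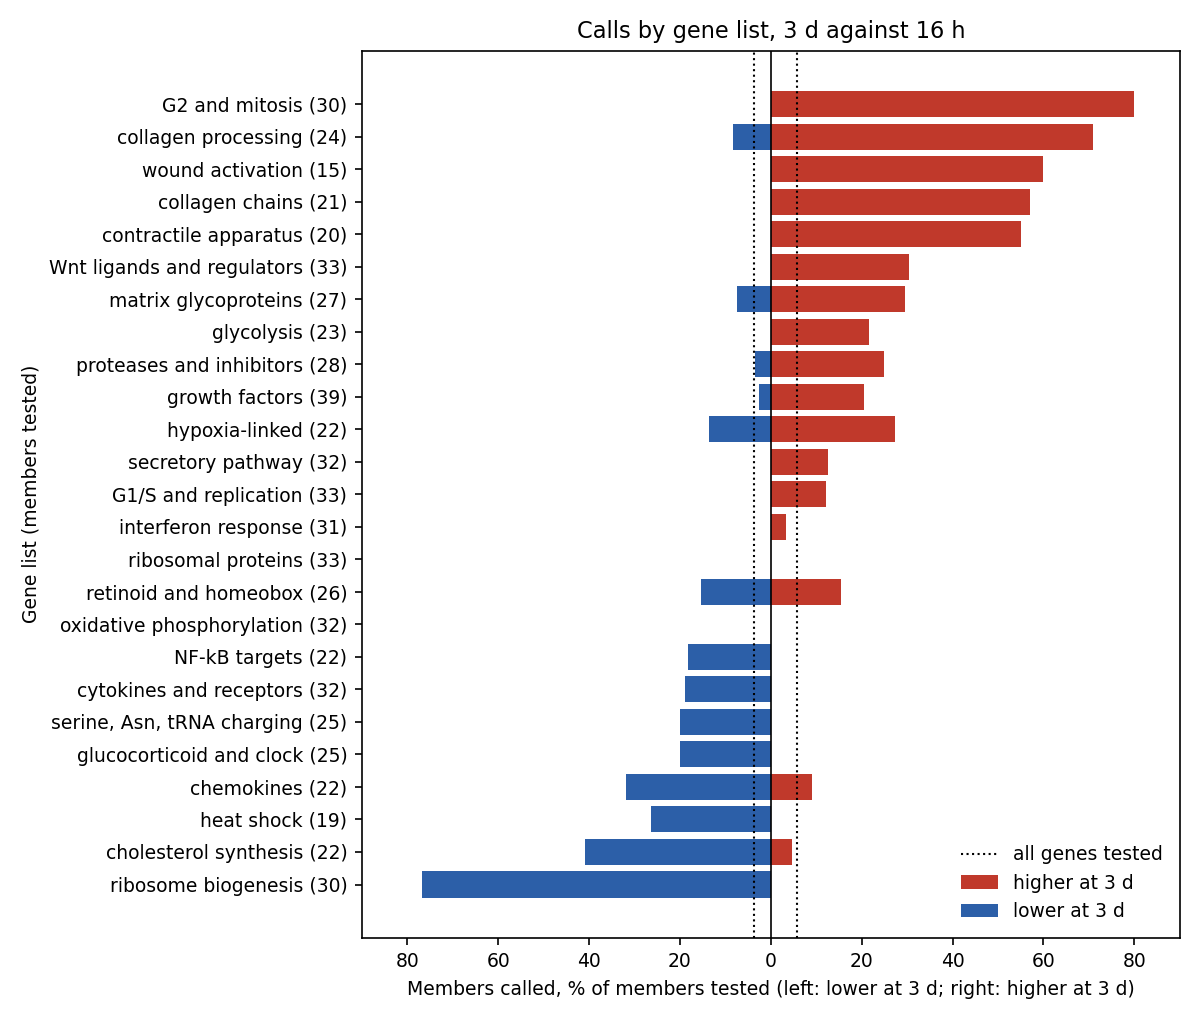
Share of the tested members of 25 gene lists that were called higher (right, red) or lower (left, blue) at 3 d than at 16 h, with the number of members tested in brackets. Dotted lines mark the share of all genes tested that was called in each direction, 5.86% higher and 3.67% lower. G2 and mitosis genes lie farthest to the right, with 24 of 30 called, and ribosome biogenesis genes farthest to the left, with 23 of 30 called.

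The largest rises and falls were ranked among called genes with at least 20 CPM in the higher group and no overlap between the groups. Some of the largest rises were of genes almost silent at 16 h. H19, an imprinted long non-coding RNA, reached 47.5, 39.4 and 30.9 at 3 d, against 0.133, 0.12 and 0 CPM at 16 h (log2 change 8.77 ± 1.52, adjusted p = 0.00331). Prokr2, a receptor for prokineticins, had 54.4, 30.3 and 8.96 at 3 d, against 0, 0.361 and 0 CPM at 16 h (log2 change 7.91 ± 1.14, adjusted p = 0.00188). Nos2, the inducible nitric oxide synthase, had 196, 267 and 95.8 at 3 d, against 3.97, 1.02 and 0.168 CPM at 16 h (log2 change 6.76 ± 1.18, adjusted p = 0.00348). In all of these the 3 d libraries lay above every 16 h library, and 3 d replicate 3 had the lowest level of the 3 d libraries. Hs6st2, which adds sulfate to heparan sulfate chains, had 52.4, 30.4 and 44.2 at 3 d, against 0.4, 0.994 and 0.0671 CPM at 16 h (log2 change 6.41 ± 1.19, adjusted p = 0.00492). Aoc3, a cell-surface amine oxidase, had 29.9, 38.8 and 17.96 at 3 d, against 1.2, 0.512 and 0.47 CPM at 16 h (log2 change 5.31 ± 0.51, adjusted p = 8.81e-05). Kif26b, a kinesin family member, had 43.8, 41.8 and 26.96 at 3 d, against 1.87, 1.05 and 0 CPM at 16 h (log2 change 5.26 ± 1.18, adjusted p = 0.0137), a call that was lost without 16 h replicate 2 (adjusted p = 0.0601). Fold changes of genes with a few counts at 16 h depend on the prior count of the fit and are best read from the levels. The remaining genes among the 15 largest rises were Col11a1, Krt79, Lrrc15, Col8a2, Serpina3g, Lgi3, Acta2, Col24a1 and Sfrp2, with log2 changes between 5.27 and 7.73. Serpina3g belongs to a cluster of near-identical genes and its level is uncertain.

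The 15 largest falls by that ranking had log2 changes between -4.22 and -2.20. Alpl, tissue-nonspecific alkaline phosphatase, had 2.16, 3.45 and 5.2 at 3 d, against 97.9, 72.8 and 31.8 CPM at 16 h (log2 change -4.22 ± 0.47, adjusted p = 0.000234). Il31ra, a receptor chain for the itch cytokine IL-31, had 3.87, 4.38 and 2.93 at 3 d, against 47.6, 91.03 and 59.2 CPM at 16 h (log2 change -4.15 ± 0.33, adjusted p = 2.88e-05), the smallest adjusted p of the 15 largest falls. Their NW means were 1.52 CPM for Alpl and 12.6 CPM for Il31ra, below all 16 h libraries. Fgf23, a hormone better known from bone, had 9.77, 10.1 and 3.07 at 3 d, against 68.05, 60.1 and 31.7 CPM at 16 h (log2 change -2.80 ± 0.48, adjusted p = 0.00301) and a mean of 0.913 CPM in NW skin. Mcoln2, an endolysosomal cation channel, had 61.1, 47.8 and 29.6 at 3 d, against 312, 264 and 223 CPM at 16 h (log2 change -2.53 ± 0.36, adjusted p = 0.00105). Penk, the precursor of enkephalin peptides, had 157, 78.8 and 155 at 3 d, against 466, 646 and 738 CPM at 16 h (log2 change -2.24 ± 0.37, adjusted p = 0.00264). For each of these genes all 3 d libraries lay below all 16 h libraries. Cadm3, Cyp4b1 and Ltbp4 were also among the 15 largest falls, with log2 changes of -3.05, -2.20 and -2.34, but unlike Alpl and Fgf23 they had NW means of 49.4, 84.2 and 298 CPM, near or above their means at 16 h. Gsta4, C7 and Ackr1 fell as well, with log2 changes of -3.00, -2.31 and -2.28. The Gsta4 call was lost without 3 d replicate 1 or 2 or 16 h replicate 1 (adjusted p up to 0.0902). That of C7 was lost without replicate 1 of either group or 3 d replicate 3 (up to 0.0676), and that of Ackr1 without 3 d replicate 1 or 3 or 16 h replicate 2 or 3 (up to 0.0963).

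**Figure D2:**
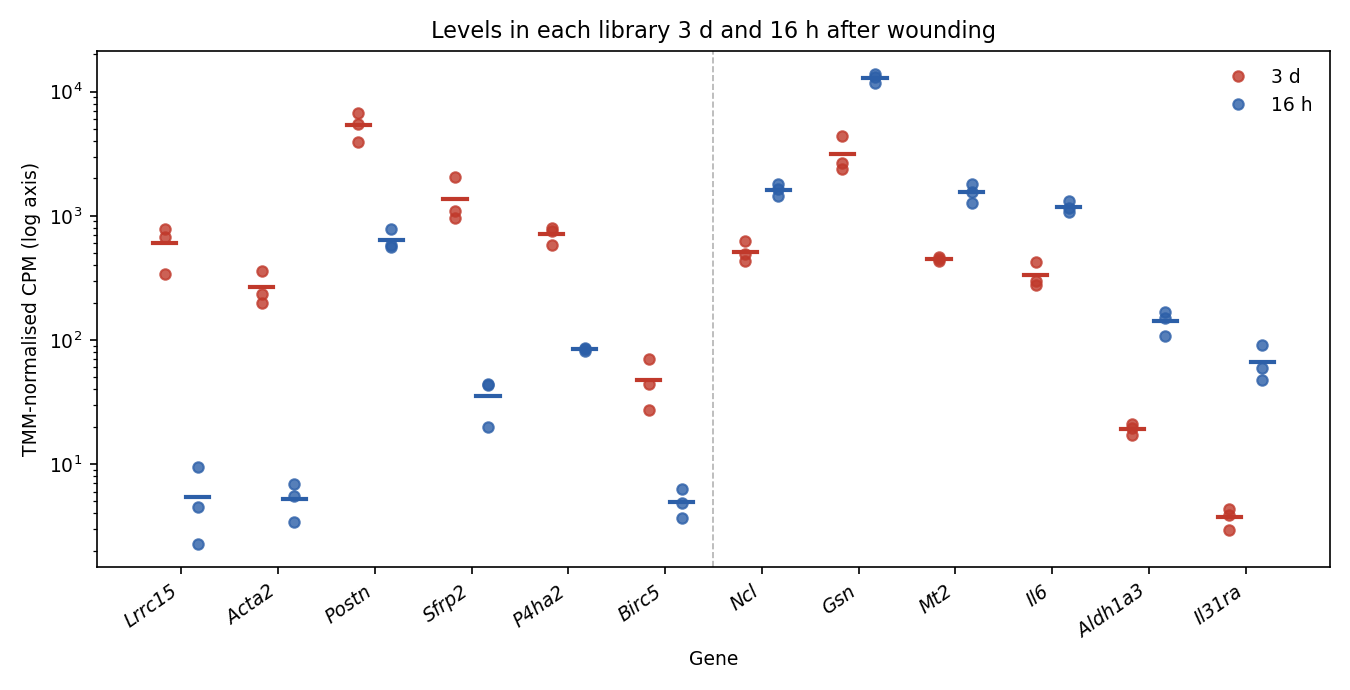
TMM-normalised CPM (log axis) of 12 genes in each library, 3 d (red, left of each pair) and 16 h (blue, right), with bars at the group means. For the 6 genes left of the dashed line all 3 d libraries lie above all 16 h libraries, and for the 6 right of it all lie below. The widest gap is that of Lrrc15, with 342 CPM in the lowest 3 d library and 9.49 CPM in the highest 16 h library.

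Of 20 genes of the contractile apparatus tested, 11 rose and none fell, with a median log2 change of 1.21 over the 20, against -0.0195 over all genes. Acta2, smooth muscle actin and the usual marker of myofibroblasts (chr19:34240336-34255373 in mm10), had 235, 199.6 and 362 at 3 d, against 6.91, 5.48 and 3.39 CPM at 16 h (log2 change 5.66 ± 0.51, adjusted p = 5.51e-05). Myl9, a regulatory light chain of smooth muscle myosin, had 32.03, 38.1 and 60.7 at 3 d, against 1.67, 3.73 and 3.29 CPM at 16 h (log2 change 3.91 ± 0.48, adjusted p = 0.000427). Mylk, the kinase that phosphorylates that chain, had 7.9, 12.5 and 8.38 at 3 d, against 2, 0.542 and 1.07 CPM at 16 h (log2 change 2.99 ± 0.48, adjusted p = 0.0021). The groups did not overlap for any of them, and Acta2 and Myl9 were highest in 3 d replicate 3. Tagln, an actin-binding protein of smooth muscle, had 8.14, 7.18 and 19.7 at 3 d, against 0.767, 2.44 and 2.05 CPM at 16 h (log2 change 2.73 ± 0.55, adjusted p = 0.00801). Cnn2, a calponin, had 175, 138 and 251 at 3 d, against 60.6, 56.5 and 61.02 CPM at 16 h (log2 change 1.66 ± 0.33, adjusted p = 0.00716). Actg2, enteric smooth muscle actin, had 23, 53 and 83 counts at 3 d and no count at 16 h, and its call was lost without 3 d replicate 2 or 3 or any 16 h library (adjusted p up to 0.0653). The 3 members with the highest levels were not called: Tpm4, a tropomyosin, had 1550, 996 and 1512 at 3 d, against 885, 882 and 888 CPM at 16 h (log2 change 0.61, adjusted p = 0.111), Flna, filamin A, a log2 change of 0.25 (adjusted p = 0.697) and Cald1, caldesmon, a log2 change of -0.05 (adjusted p = 0.903). The count of 11 fell to 6 without 16 h replicate 2, to 7 without 16 h replicate 1 or 3 or 3 d replicate 2 or 3, and to 8 without 3 d replicate 1.

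Many smooth muscle genes carry CArG boxes, the sites of serum response factor, near their start. An exact CArG box stood in the 250 bases before the start of 4 of the 18 contractile genes with an entry in RefSeq's promoter table (GRCm38.p6), namely Cnn2, Fhl2, Myl9 and Vcl, against 1.4% of the 11725 tested genes with an entry. Both strands were searched. The windows of the 2 of these genes that rose are printed because they show where the match lies; capitals mark the CArG box, and Acta2 had an entry with no exact match. Myl9 is at chr2:156775214-156775463 and Cnn2 at chr10:79988350-79988599, both on the plus strand, 5′ to 3′.
Myl9: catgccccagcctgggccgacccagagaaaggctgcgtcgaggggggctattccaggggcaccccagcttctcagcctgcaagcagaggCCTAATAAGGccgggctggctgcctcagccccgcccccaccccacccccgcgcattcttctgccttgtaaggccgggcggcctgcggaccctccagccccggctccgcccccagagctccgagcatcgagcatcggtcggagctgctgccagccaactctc
Cnn2: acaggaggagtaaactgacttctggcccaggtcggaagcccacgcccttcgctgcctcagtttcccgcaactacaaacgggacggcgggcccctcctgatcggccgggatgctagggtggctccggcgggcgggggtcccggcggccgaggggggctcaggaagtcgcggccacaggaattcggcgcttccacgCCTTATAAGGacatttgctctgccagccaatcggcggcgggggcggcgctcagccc
Fhl2, a LIM-domain protein, had 24.2, 34.5 and 44.1 at 3 d, against 16.5, 14.8 and 20.1 CPM at 16 h and was not called (log2 change 1.00, adjusted p = 0.175). A match is a description of letters and not evidence of binding.

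Of 15 markers of wound-activated fibroblasts 9 rose and none fell, and their median log2 change of 2.31 was the highest of the 41 fibroblast lists. Their summed level was 35000, 37920 and 27370 at 3 d, against 18870, 11580 and 10250 CPM at 16 h. In NW skin the sum was 34630, 25060 and 30090 CPM, so that the NW and 3 d ranges overlapped. Lrrc15, a leucine-rich repeat membrane protein found on activated fibroblasts (chr16:30269302-30283254), had 679.5, 777 and 342 at 3 d, against 4.54, 9.49 and 2.28 CPM at 16 h (log2 change 6.78 ± 0.70, adjusted p = 0.000132). Postn, periostin, a matricellular protein that binds integrins (chr3:54359267-54391041), had 5509, 6759 and 3913 at 3 d, against 777, 580.2 and 556 CPM at 16 h (log2 change 3.08 ± 0.31, adjusted p = 0.00011). Aspn, asporin, a small leucine-rich proteoglycan, had 338, 576 and 319 at 3 d, against 41.6, 25.8 and 30.1 CPM at 16 h (log2 change 3.66 ± 0.36, adjusted p = 0.000104). The lowest 3 d library exceeded the highest 16 h library for all 3 genes, by the widest margin for Lrrc15. Cthrc1, a secreted collagen triple helix repeat protein, had 951, 817 and 1048 at 3 d, against 139, 182 and 246 CPM at 16 h (log2 change 2.31 ± 0.34, adjusted p = 0.00126). Fap, fibroblast activation protein, a surface protease, had 60.4, 81.1 and 52.03 at 3 d, against 4.3, 9.88 and 12.9 CPM at 16 h (log2 change 2.83 ± 0.39, adjusted p = 0.000836). Not all members were called. Tnc, tenascin C, stood at 4087, 3718 and 1561 at 3 d, against 2858, 2500 and 868 CPM at 16 h (log2 change 0.59, adjusted p = 0.436) and Fn1, fibronectin, at 2452, 3217 and 1141 at 3 d, against 1338, 814 and 484 CPM at 16 h (log2 change 1.37, adjusted p = 0.0661). The mean of Tnc in NW skin was 13.02 CPM, so that it was already far above that level at 16 h, whereas the mean of Lrrc15 was 5.76 CPM in NW skin.

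Of 21 collagen chains tested 12 rose and none fell, with a median log2 change of 1.71, and the chains of type I were not among those called. The summed level of the chains was 209700, 251700 and 122500 at 3 d, against 104500, 48740 and 32970 CPM at 16 h. In NW skin the sum was 176800, 74900 and 151600 CPM, so that the NW and 3 d ranges overlapped. Col5a1, which helps start type I fibrils, had 4876, 5050 and 2725 at 3 d, against 769, 492 and 462 CPM at 16 h (log2 change 2.88 ± 0.32, adjusted p = 0.000195). Col12a1, a fibril-associated collagen, had 779, 695 and 416 at 3 d, against 102, 101 and 61.1 CPM at 16 h (log2 change 2.84 ± 0.29, adjusted p = 0.000132). Col11a1, a fibrillar chain typical of cartilage, had 15.3, 27.3 and 19.9 at 3 d, against 0, 0.271 and 0 CPM at 16 h (log2 change 7.73 ± 1.28, adjusted p = 0.00388). Col8a2, a short-chain collagen, had 16.6, 49.7 and 15.4 at 3 d, against 0, 0.753 and 0 CPM at 16 h (log2 change 6.70 ± 1.35, adjusted p = 0.00801). These 4 did not overlap between the groups, and Col11a1 was at 0 in NW skin and had a mean of 0.143 CPM at 1.5 d. Col3a1, the main chain of early wound collagen, had 103700, 116300 and 55950 at 3 d, against 40370, 22060 and 13080 CPM at 16 h (log2 change 1.87 ± 0.45, adjusted p = 0.0191), but the call was lost without 3 d replicate 1 or 2 or 16 h replicate 2 or 3 (adjusted p up to 0.0827). Col1a1 had 42880, 57940 and 25400 at 3 d, against 28790, 10200 and 7141 CPM at 16 h (log2 change 1.45, adjusted p = 0.11). Col1a2 had 41240, 51000 and 26840 at 3 d, against 25420, 9107 and 7962 CPM at 16 h (log2 change 1.49, adjusted p = 0.0581). Of Col1a1, 3 d replicate 3 lay below 16 h replicate 1, so the groups overlapped, and the 16 h libraries of both chains differed among themselves by more than 3-fold.

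Of 24 genes whose products modify, fold, cleave or crosslink collagen, 17 rose and 2 fell, with a median log2 change of 1.37, and leaving out any of the 6 libraries gave 16 higher. P4ha2, a catalytic subunit of collagen prolyl 4-hydroxylase, had 802, 751 and 581 at 3 d, against 81.6, 84.9 and 86.5 CPM at 16 h (log2 change 3.08 ± 0.26, adjusted p = 3.77e-05). Lox, lysyl oxidase, which starts crosslinks, had 3490, 2995 and 1437 at 3 d, against 662, 585 and 314 CPM at 16 h (log2 change 2.34 ± 0.46, adjusted p = 0.00736). Loxl2, a lysyl oxidase relative, had 475, 379.6 and 377 at 3 d, against 111, 98.02 and 76.8 CPM at 16 h (log2 change 2.11 ± 0.29, adjusted p = 0.000739). P4ha2 varied little at 16 h, and Lox was lowest in replicate 3 of either group. Fkbp10, a collagen prolyl isomerase, had 1122, 1007 and 751 at 3 d, against 323, 382 and 244 CPM at 16 h (log2 change 1.60 ± 0.25, adjusted p = 0.00171). Serpinh1, the collagen chaperone HSP47, had 4971, 4482 and 4464 at 3 d, against 1801, 1847 and 1707 CPM at 16 h (log2 change 1.38 ± 0.24, adjusted p = 0.00377). P3h1, a prolyl 3-hydroxylase, had 334, 312 and 316 at 3 d, against 91.9, 127 and 119 CPM at 16 h (log2 change 1.51 ± 0.23, adjusted p = 0.00168). In none of these 6 genes did the groups overlap. The 2 members that fell were Pcolce2, an enhancer of procollagen cleavage, with 64.2, 106 and 73.97 at 3 d, against 175, 175 and 239 CPM at 16 h (log2 change -1.27 ± 0.27, adjusted p = 0.0104), and Loxl4, with 83.5, 77.3 and 32.95 at 3 d, against 218, 187 and 119 CPM at 16 h (log2 change -1.44 ± 0.39, adjusted p = 0.034), a call lost without 3 d replicate 2 or 3 or 16 h replicate 1 or 2 (adjusted p up to 0.114).

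Of 32 genes of the secretory route 4 (12.5%) were higher, against 5.86% of all genes, and none was lower. Kdelr3, a receptor that returns chaperones to the endoplasmic reticulum, had 369, 280.5 and 372 at 3 d, against 78.9, 63.8 and 72.4 CPM at 16 h (log2 change 2.25 ± 0.25, adjusted p = 0.000208). Its relative Kdelr2 had 694, 462 and 474 at 3 d, against 251, 266 and 219.9 CPM at 16 h (log2 change 1.15 ± 0.24, adjusted p = 0.00889, lost without 3 d replicate 1 at an adjusted p of 0.0539). Of 22 genes of folding in the endoplasmic reticulum only P4hb, protein disulfide isomerase and a subunit of the prolyl hydroxylase, was called, with 3269, 2904 and 2766 at 3 d, against 1473, 1505 and 1186 CPM at 16 h (log2 change 1.10 ± 0.20, adjusted p = 0.00493). That was 4.55% of the list, against 5.86% of all genes called higher. Hspa5, the chaperone BiP, stood at 3708, 2844 and 2894 at 3 d, against 4606, 3836 and 3768 CPM at 16 h (log2 change -0.37, adjusted p = 0.386). All 3 d libraries lay below all 16 h libraries, but the difference did not pass the test. The 4 higher calls of the secretory route fell to 1 without 3 d replicate 1 and to 2 without 16 h replicate 3, and DESeq2 made 10.

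Of 27 other matrix glycoproteins and proteoglycans 8 rose and 2 fell, with a median log2 change of 0.81. Bgn, biglycan, had 2341, 2556 and 1700 at 3 d, against 681, 645 and 623 CPM at 16 h (log2 change 1.76 ± 0.22, adjusted p = 0.000425). Fbln5, an elastic fibre protein, had 112, 147 and 114 at 3 d, against 35.99, 35.4 and 32 CPM at 16 h (log2 change 1.85 ± 0.20, adjusted p = 0.00016). Mfap2, a microfibril protein, had 305, 398 and 294 at 3 d, against 66.2, 44.3 and 60.8 CPM at 16 h (log2 change 2.54 ± 0.38, adjusted p = 0.0013). Ogn, osteoglycin, had 291, 523 and 213 at 3 d, against 55.6, 40.7 and 70.7 CPM at 16 h (log2 change 2.62 ± 0.39, adjusted p = 0.00139). The last 3 had NW means of 116, 478 and 483 CPM, so that their 3 d means were nearer to NW skin than their 16 h means. Prg4, the lubricating proteoglycan lubricin, had 617, 588 and 164 at 3 d, against 1581, 1837 and 1275 CPM at 16 h (log2 change -1.78 ± 0.40, adjusted p = 0.0147), a call lost without 16 h replicate 2 (adjusted p = 0.0569). Ltbp4, which anchors latent TGF-beta to microfibrils, had 47.3, 75.4 and 42.2 at 3 d, against 309, 337 and 188 CPM at 16 h (log2 change -2.34 ± 0.32, adjusted p = 0.000799). The count of 8 fell to 4 without 16 h replicate 3 and to 5 without 16 h replicate 2 or 3 d replicate 2, and 5 were lower with total-count scaling. Dcn, decorin, did not separate the groups, with 5630, 6699 and 5181 at 3 d, against 5887, 5336 and 6408 CPM at 16 h (log2 change -0.01, adjusted p = 0.989).

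Among proteases and their inhibitors 7 of 28 (25.0%) were higher and 1 (3.57%) was lower, against 5.86% and 3.67% of all genes. Mmp23, a membrane-linked matrix metalloproteinase, had 202, 189 and 209 at 3 d, against 38.6, 20.6 and 38.4 CPM at 16 h (log2 change 2.62 ± 0.32, adjusted p = 0.000425). Adamts14, which cleaves procollagen N-propeptides, had 140.5, 146 and 91.2 at 3 d, against 17.6, 29.2 and 20.9 CPM at 16 h (log2 change 2.48 ± 0.32, adjusted p = 0.000491). Mmp3, stromelysin 1, was the member that fell, with 1624, 1577 and 1482 at 3 d, against 4040, 3434 and 3069 CPM at 16 h (log2 change -1.17 ± 0.26, adjusted p = 0.0133). With total-count scaling 6 were higher and 4 lower, and 3 or 4 were lower with DESeq2, limma-voom or only the 6 libraries. The Mmp3 call was lost without 16 h replicate 1 (adjusted p = 0.0548), and the count of 7 fell to 3 without that library and to 4 without 16 h replicate 2 or 3 d replicate 2. AP-1 sites, searched as TGANTCA, which reads as TGANTCA on the other strand too, stood in the promoter windows of 6 of 20 proteases and inhibitors with an entry (Mmp10, Mmp12, Mmp13, Mmp3, Plaur and Serpinb2), against 6.29% of tested genes. Of integrins and related genes 4 of 18 were higher and none lower. Itga11, the fibroblast receptor chain for collagen I, had 112, 178 and 54.02 at 3 d, against 13.01, 10.1 and 14.5 CPM at 16 h (log2 change 3.19 ± 0.45, adjusted p = 0.000869). Itgb5, a chain of a vitronectin receptor, had 564, 682 and 394 at 3 d, against 191, 185 and 156 CPM at 16 h (log2 change 1.63 ± 0.27, adjusted p = 0.00281). Both separated the groups fully. Without 3 d replicate 2 or any of the 16 h libraries in turn 2 integrin genes were called. Itga5, the fibronectin receptor chain, stood at 1099, 912 and 672 at 3 d, against 867, 830 and 536 CPM at 16 h (log2 change 0.27, adjusted p = 0.64).

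Among secreted signals, the TGF-beta isoform Tgfb3 rose. It had 81, 132 and 99.5 at 3 d, against 11.4, 9.01 and 9.63 CPM at 16 h (log2 change 3.38 ± 0.33, adjusted p = 9.87e-05). Tgfb1 had 25.5, 22.1 and 21.4 at 3 d, against 21.9, 16.1 and 13.4 CPM at 16 h and was not called (log2 change 0.43, adjusted p = 0.422). Of the 25 genes of the TGF-beta list, 2 were higher and 2 lower, where 5.86% and 3.67% of all genes were. The 2 lower calls fell to 0 without replicate 1 or 2 of either group and to 1 without replicate 3 of either group, and DESeq2 called 5 higher. Ccn2, connective tissue growth factor, was 1 of the higher, with 101, 124 and 71.7 at 3 d, against 36.1, 25.7 and 52.5 CPM at 16 h (log2 change 1.38, adjusted p = 0.0447), but this call was lost without replicate 1 or 2 of either group (adjusted p up to 0.16) and with total-count scaling. Of 25 genes of BMP and activin signalling 3 (12.0%) were higher and 2 (8.0%) lower, against the same shares of all genes, 5.86% and 3.67%. The lower calls fell to 0 without 3 d replicate 2 or 16 h replicate 1 or 2 and to 1 without any other of the 6 libraries. Gdf10, a BMP relative, had 87.2, 174 and 145 at 3 d, against 20.6, 52.6 and 45.4 CPM at 16 h (log2 change 1.78 ± 0.35, adjusted p = 0.00736). Fstl1, a follistatin relative, had 4110, 3967 and 2668 at 3 d, against 1698, 1426 and 1272 CPM at 16 h (log2 change 1.29 ± 0.25, adjusted p = 0.00702). Inhba, the activin A chain, stood at 493, 249 and 286 at 3 d, against 141, 184 and 142 CPM at 16 h (log2 change 1.14, adjusted p = 0.233), with a mean of 13.4 CPM in NW skin.

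Of 33 Wnt ligands, receptors and regulators, 10 rose and none fell, with a median log2 change of 0.88. Sfrp2, a secreted frizzled-related protein that modulates Wnt ligands, had 2069, 1089 and 963 at 3 d, against 19.7, 43.8 and 43.2 CPM at 16 h (log2 change 5.27 ± 0.48, adjusted p = 5.51e-05). Fzd2, a frizzled receptor, had 53.7, 44.5 and 39.6 at 3 d, against 9.34, 11.7 and 11.7 CPM at 16 h (log2 change 2.07 ± 0.24, adjusted p = 0.000269). Ror2, a co-receptor for Wnt5a, had 50.02, 51.5 and 39.2 at 3 d, against 13.8, 12.7 and 8.79 CPM at 16 h (log2 change 1.99 ± 0.31, adjusted p = 0.00182). All 3 separated the groups, with Sfrp2 highest in 3 d replicate 1. The matricellular Ccn5 had 427, 394 and 349 at 3 d, against 31.7, 32.96 and 99.2 CPM at 16 h (log2 change 2.84 ± 0.39, adjusted p = 0.000755) and its relative Ccn4 had 192, 138 and 130.2 at 3 d, against 43.3, 52.7 and 44.2 CPM at 16 h (log2 change 1.71 ± 0.28, adjusted p = 0.00221). The list counts secreted inhibitors as well as receptors: Dkk3, a Dickkopf family member, had 123, 162 and 142 at 3 d, against 32.9, 17.6 and 11.04 CPM at 16 h (log2 change 2.80 ± 0.45, adjusted p = 0.00227), and Dkk2, an inhibitor or modulator of Wnt co-receptors, 12.7, 25.4 and 14.8 at 3 d, against 6.5, 2.5 and 3.39 CPM at 16 h (log2 change 2.09 ± 0.40, adjusted p = 0.00554). Of 39 growth factors and binding proteins 8 (20.5%) were higher and 1 (2.56%) lower, against 5.86% and 3.67% of all genes. With total-count scaling 3 were lower. Angptl2, an angiopoietin-like secreted protein, had 560.2, 552 and 367 at 3 d, against 73.8, 85.1 and 87.9 CPM at 16 h (log2 change 2.58 ± 0.26, adjusted p = 0.000123). Pdgfc, a ligand of the PDGF receptor alpha, had 41.3, 23.8 and 30.4 at 3 d, against 10.3, 4.16 and 5.1 CPM at 16 h (log2 change 2.29 ± 0.44, adjusted p = 0.00593). Igfbp4, a binding protein of insulin-like growth factors, had 384, 372 and 396 at 3 d, against 102, 98.02 and 179 CPM at 16 h (log2 change 1.60 ± 0.26, adjusted p = 0.00249). Vegfa, the main angiogenic growth factor, was the member that fell, with 198, 157 and 176 at 3 d, against 334, 353 and 269 CPM at 16 h (log2 change -0.85 ± 0.23, adjusted p = 0.0377). The Vegfa call was lost without 16 h replicate 1 or 2 or any 3 d library (adjusted p up to 0.134).

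Of 30 genes of G2 and mitosis 24 rose and none fell. The median log2 change was 2.15, and for all 30 every 3 d library lay above every 16 h library. Over all genes the groups did not overlap, in either direction, for 32.5%. Birc5, survivin, had 44.3, 27.2 and 69.96 at 3 d, against 6.3, 3.71 and 4.83 CPM at 16 h (log2 change 3.25 ± 0.39, adjusted p = 0.000339). Ccnb2, a mitotic cyclin, had 69.4, 43.9 and 75.7 at 3 d, against 10.04, 5.15 and 5.9 CPM at 16 h (log2 change 3.16 ± 0.41, adjusted p = 0.000547). Plk1, a mitotic kinase, had 33.9, 27.6 and 48.3 at 3 d, against 7.54, 3.07 and 5.57 CPM at 16 h (log2 change 2.76 ± 0.45, adjusted p = 0.00227). All 3 were low in every 16 h library. Their NW means were 13.5, 16.7 and 5.18 CPM, and their means at 1.5 d were 35.1, 63.01 and 27.8 CPM. The summed level of the list was 1027, 788.5 and 1245 at 3 d, against 372.4, 208 and 172.6 CPM at 16 h. In NW skin the sum was 445, 376.3 and 853.3 CPM, so that the NW and 3 d ranges overlapped. Cenpa, the centromeric histone, had 35.7, 25.6 and 64.9 at 3 d, against 6.94, 3.73 and 3.19 CPM at 16 h (log2 change 3.19 ± 0.41, adjusted p = 0.000547). Mki67, the proliferation marker Ki-67, had 50.7, 41.6 and 46.4 at 3 d, against 18.98, 12.7 and 12.9 CPM at 16 h (log2 change 1.64 ± 0.39, adjusted p = 0.0178) and lost its call without 3 d replicate 1 or 16 h replicate 2 or 3 (adjusted p up to 0.0782). The count of 24 ranged from 16 to 26 when 1 library was left out. Of 33 genes of G1, S phase and replication 4 were higher and none lower, with a median log2 change of 0.37, and 1 was higher without 3 d replicate 1 or 3 or 16 h replicate 2 or 3, 2 with total-count scaling and 10 by DESeq2. Tk1, thymidine kinase, had 26.01, 19.6 and 43.1 at 3 d, against 8.21, 6.39 and 3.89 CPM at 16 h (log2 change 2.26 ± 0.39, adjusted p = 0.00331). Mcm6, a helicase subunit, had 165, 97.3 and 133 at 3 d, against 153, 134 and 114 CPM at 16 h (log2 change -0.02, adjusted p = 0.976). Cdk4 had 207, 161 and 248 at 3 d, against 184, 215 and 234 CPM at 16 h (log2 change -0.04, adjusted p = 0.943).

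Of 30 genes of ribosome biogenesis 23 fell and none rose. All 30 log2 changes were negative with a median of -1.21, and for 28 the 3 d libraries all lay below the 16 h libraries. The groups did not overlap, in either direction, for 32.5% of all genes. Ncl, nucleolin, an abundant protein of the nucleolus (chr1:86344719-86359455), had 621, 429.5 and 491 at 3 d, against 1440, 1800 and 1635 CPM at 16 h (log2 change -1.66 ± 0.21, adjusted p = 0.000487). Rrp12, a ribosome maturation factor, had 47.3, 48.3 and 37 at 3 d, against 186, 171 and 98.8 CPM at 16 h (log2 change -1.78 ± 0.28, adjusted p = 0.00168). Ddx21, an RNA helicase of rRNA processing, had 103, 99.05 and 90.01 at 3 d, against 243, 291 and 285 CPM at 16 h (log2 change -1.49 ± 0.21, adjusted p = 0.000945). Mybbp1a, a nucleolar regulator, had 180.3, 149 and 150.5 at 3 d, against 476, 454 and 315 CPM at 16 h (log2 change -1.37 ± 0.20, adjusted p = 0.0013). All 4 separated the groups, and their NW means of 368, 29.7, 71.2 and 81.2 CPM were below all 3 d libraries. Npm1, nucleophosmin, had 298, 170.5 and 328 at 3 d, against 367, 456 and 638 CPM at 16 h and was not called (log2 change -0.88, adjusted p = 0.121). Leaving out 1 library gave 17 to 24 calls. None of 33 ribosomal protein genes was called by edgeR (0 at an unadjusted p under 0.05, 0 by DESeq2 and 0 by limma-voom), with all log2 changes negative and a median of -0.31. Myc, the transcription factor known to drive ribosome genes, stood at 488, 494 and 398 at 3 d, against 378, 487 and 502 CPM at 16 h (log2 change 0.01, adjusted p = 0.977). Its partner Max had 8.79, 10.7 and 12.5 at 3 d, against 30.4, 24.1 and 26.8 CPM at 16 h (log2 change -1.35, adjusted p = 0.0286), a call lost without any of the 6 libraries in turn (adjusted p up to 0.0957). Of the 21 genes of the MYC and growth list 3 (14.3%) were higher and 2 (9.52%) lower, against 5.86% and 3.67% of all genes. The called genes were Max, Eif3b, Mxd3, Mxd4 and Mxi1. Leaving out 1 library gave 0 to 2 higher and 0 to 1 lower. The MYC site, the E-box CACGTG, which reads the same on both strands, stood in the window of 1 of 25 ribosome biogenesis genes with an entry (Nop2), against 9.63% of tested genes.

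**Figure D3:**
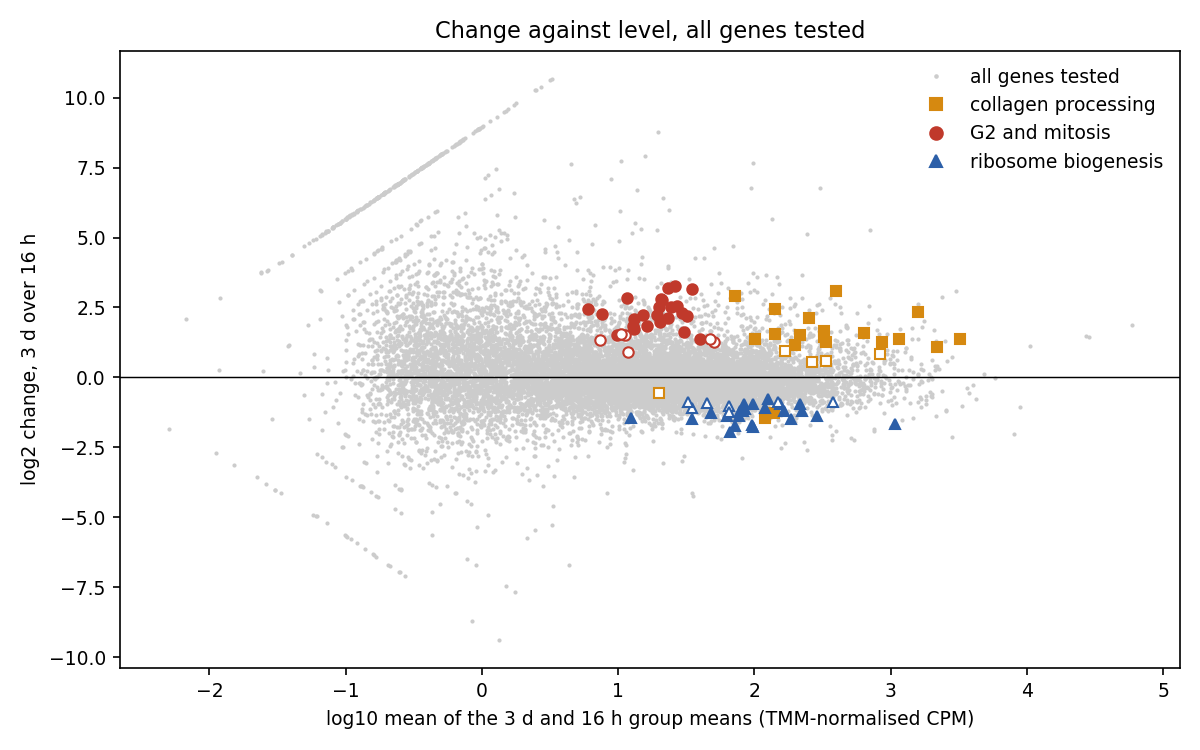
Log2 change (3 d over 16 h) of each gene tested against the log10 of its mean level in the 2 groups (TMM-normalised CPM), with 3 lists marked; filled symbols are called and open symbols are not. Mitosis genes (circles) all lie above 0 and ribosome biogenesis genes (triangles) all below it, while collagen processing genes (squares) lie mostly above. The straight band at the upper left holds genes without a count at 16 h.

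Among inflammatory signals, 7 of 22 chemokines fell and 2 rose, with a median log2 change of -0.64. Cxcl14, a chemokine of resting skin, had 241, 171 and 161 at 3 d, against 1089, 781 and 806 CPM at 16 h (log2 change -2.22 ± 0.28, adjusted p = 0.000487), and its NW mean was 168 CPM. Cxcl1, a neutrophil attractant, had 1764, 1255 and 1670 at 3 d, against 2938, 3360 and 4406 CPM at 16 h (log2 change -1.19 ± 0.30, adjusted p = 0.026). Cxcl5, of the same type, had 1430, 622 and 1120 at 3 d, against 3880, 5182 and 4778 CPM at 16 h (log2 change -2.13 ± 0.61, adjusted p = 0.0465). Both separated the groups. Cxcl1 lost its call without 3 d replicate 2 or 3 or 16 h replicate 2 or 3 (adjusted p up to 0.0983), and Cxcl5 without any of the 6 libraries (up to 0.157). Ccl19, a ligand of CCR7, had 0.0407, 0 and 0.181 at 3 d, against 5.04, 4.1 and 3.59 CPM at 16 h (log2 change -5.74 ± 1.16, adjusted p = 0.00832). Ccl2, the main monocyte attractant, had 1713, 1098 and 2023 at 3 d, against 1841, 2010 and 3024 CPM at 16 h (log2 change -0.51, adjusted p = 0.474), so the groups overlapped. The 2 that rose are both ligands of CXCR3 known as interferon targets: Cxcl9 had 19.9, 42.5 and 22.9 at 3 d, against 0.667, 2.23 and 1.44 CPM at 16 h (log2 change 4.29 ± 0.59, adjusted p = 0.000815). Cxcl10 had 84.4, 141 and 84.4 at 3 d, against 21.2, 19.8 and 30.6 CPM at 16 h (log2 change 2.11 ± 0.30, adjusted p = 0.00105). The count of 7 lower chemokines fell to 2 without 3 d replicate 2 or 3 or 16 h replicate 2 or 3, and to 4 without replicate 1 of either group.

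Sites of NF-kappa B, written here as kappa B sites, stood exactly in the 250 bases before the start of 6 of 16 chemokine genes with an entry (Ccl20, Ccl9, Cxcl1, Cxcl10, Cxcl2 and Cxcl3), against 10.8% of tested genes. Cxcl1 and Cxcl10 are printed because the Cxcl1 window belongs to a chemokine that fell and the Cxcl10 window to a chemokine that rose; capitals mark them, on either strand, and the pair of matches that overlap are run together. Cxcl1 is at chr5:90890995-90891244 on the plus strand and Cxcl10 at chr5:92348890-92349139 on the minus strand, 5′ to 3′.
Cxcl1: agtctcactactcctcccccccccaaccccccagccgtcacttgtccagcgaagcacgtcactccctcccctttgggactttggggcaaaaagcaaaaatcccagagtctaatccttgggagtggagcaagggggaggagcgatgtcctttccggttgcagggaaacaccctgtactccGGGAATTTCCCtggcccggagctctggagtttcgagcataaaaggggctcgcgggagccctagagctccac
Cxcl10: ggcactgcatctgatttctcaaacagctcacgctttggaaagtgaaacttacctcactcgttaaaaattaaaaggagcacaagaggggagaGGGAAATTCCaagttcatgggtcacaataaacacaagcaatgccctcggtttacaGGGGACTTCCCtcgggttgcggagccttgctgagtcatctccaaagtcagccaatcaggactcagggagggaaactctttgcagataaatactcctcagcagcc
Both windows hold exact kappa B sites, while the genes differed in the direction of their change.

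Cytokines and their receptors gave 6 lower and no higher calls of 32, with a median log2 change of -0.82. Il6, interleukin 6, had 426, 276 and 298 at 3 d, against 1079, 1164 and 1315 CPM at 16 h (log2 change -1.83 ± 0.35, adjusted p = 0.00643). Il6ra, its receptor chain, had 13.9, 25.8 and 18.1 at 3 d, against 51.1, 41.8 and 42.1 CPM at 16 h (log2 change -1.22 ± 0.27, adjusted p = 0.0116), a call lost without 3 d replicate 1 (adjusted p = 0.0525). Csf3, which drives neutrophil production, had 100, 55.9 and 52.2 at 3 d, against 494, 396 and 353 CPM at 16 h (log2 change -2.58 ± 0.73, adjusted p = 0.0424). Lif, an IL-6 family cytokine, had 122, 66.5 and 110.1 at 3 d, against 227, 320.4 and 250.2 CPM at 16 h (log2 change -1.42 ± 0.41, adjusted p = 0.0465). In all 4 the 3 d libraries lay below the 16 h libraries, but the calls of Csf3 and Lif were lost when any of the 6 libraries was left out (adjusted p up to 0.136 and 0.157). Il33, an alarmin, stood at 1510, 1077 and 1117 at 3 d, against 2708, 2448 and 2069 CPM at 16 h (log2 change -0.96, adjusted p = 0.0813). With total-count scaling or DESeq2 12 cytokine genes were lower, 10 with only the 6 libraries, 3 with no filter, and 2 to 4 when 1 library was left out (2 without 3 d replicate 2 or 16 h replicate 2, 3 without 3 d replicate 1 or 3 or 16 h replicate 1). Of 22 NF-kappa B targets and regulators 4 were lower, and 2 without 16 h replicate 2. Sod2, the mitochondrial superoxide dismutase, had 218, 103 and 172 at 3 d, against 626, 632 and 609.5 CPM at 16 h (log2 change -1.92 ± 0.34, adjusted p = 0.00377). Tnip1, a partner of A20, had 58.7, 66.04 and 66.05 at 3 d, against 189, 208 and 147 CPM at 16 h (log2 change -1.51 ± 0.20, adjusted p = 0.00063). Ptgs2, cyclooxygenase 2, had 701, 708 and 447 at 3 d, against 1929, 2299 and 1120 CPM at 16 h (log2 change -1.53 ± 0.33, adjusted p = 0.0112), lost without 16 h replicate 2 (adjusted p = 0.0558). The feedback inhibitor Nfkbia had 858, 824 and 1127 at 3 d, against 1176, 1151 and 1512 CPM at 16 h and was not called (log2 change -0.45, adjusted p = 0.326).

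Of 31 interferon-stimulated genes 1 (3.23%) was higher, against 5.86% of all genes, and none was lower. Of the log2 changes 28 were positive and 3 negative, with a median of 0.52. The summed level was 1460, 1717 and 1092 at 3 d, against 704.2, 814.8 and 1536 CPM at 16 h. Thus 16 h replicate 3 lay within the 3 d range and the other 16 h libraries below it. No member was called without 3 d replicate 1 or 2 or 16 h replicate 2, with total-count scaling or with only the 6 libraries, and 3 were higher without 16 h replicate 3 and with DESeq2. Complement and acute phase genes gave 3 higher and 1 lower of 23, with 3 lower under total-count scaling. Hp, haptoglobin, had 328, 175 and 73.2 at 3 d, against 19.1, 17.1 and 11.6 CPM at 16 h (log2 change 3.59 ± 0.66, adjusted p = 0.00487), with a spread of more than 4-fold among the 3 d libraries. C1qtnf6, a secreted C1q-like protein, had 141, 145 and 122 at 3 d, against 35.2, 24.3 and 24.4 CPM at 16 h (log2 change 2.28 ± 0.24, adjusted p = 0.00016). Ptx3, a pentraxin of innate immunity, was the member that fell, with 1627, 1007 and 976 at 3 d, against 3524, 3139 and 2709 CPM at 16 h (log2 change -1.38 ± 0.33, adjusted p = 0.0199), a call lost without 3 d replicate 2 or 3 or 16 h replicate 1 or 2 (adjusted p up to 0.0846). Saa3, an acute phase protein, had 1748, 737 and 836 at 3 d, against 1079, 513 and 548 CPM at 16 h (log2 change 0.63, adjusted p = 0.636) and a mean of 2.76 CPM in NW skin, so it was still far above the unwounded level at 3 d.

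In energy metabolism, of 23 glycolysis genes 5 were higher and none lower, with a median log2 change of 0.49. Slc16a3, the lactate exporter MCT4, had 378, 283 and 297 at 3 d, against 49.2, 49.9 and 36.5 CPM at 16 h (log2 change 2.82 ± 0.36, adjusted p = 0.000487), with a mean of 11.2 CPM in NW skin. Eno1, enolase, had 1830, 1581 and 1821 at 3 d, against 737, 902 and 886 CPM at 16 h (log2 change 1.05 ± 0.22, adjusted p = 0.00947). Ldha, lactate dehydrogenase A, had 2053, 1572 and 2304 at 3 d, against 2005, 1992 and 1905 CPM at 16 h (log2 change 0.01, adjusted p = 0.993) and Pkm, pyruvate kinase, had 2639, 2346 and 2519 at 3 d, against 1939, 2061 and 1668 CPM at 16 h (log2 change 0.40, adjusted p = 0.229). The count of 5 fell to 2 without 16 h replicate 1 and to 3 without 16 h replicate 2 or 3 d replicate 2 or with total-count scaling. Of 22 genes linked to hypoxia 6 were higher and 3 lower, but the lower calls fell to 1 without any 3 d library in turn, without 16 h replicate 1 or 2, or with no filter on low counts. Pdk1, which restrains pyruvate entry into mitochondria, had 98.5, 83.5 and 77.5 at 3 d, against 25.6, 15.97 and 7.14 CPM at 16 h (log2 change 2.41 ± 0.41, adjusted p = 0.00323). Egln1, an oxygen-sensing prolyl hydroxylase, had 145, 159.7 and 162 at 3 d, against 83.4, 86.7 and 69.8 CPM at 16 h (log2 change 0.96 ± 0.18, adjusted p = 0.0049). Adm, adrenomedullin, moved the other way, with 75.6, 77.7 and 41.8 at 3 d, against 257, 199 and 193 CPM at 16 h (log2 change -1.73 ± 0.28, adjusted p = 0.00212), and Hif1a stood at 926, 770.3 and 565 at 3 d, against 1138, 1071 and 601 CPM at 16 h (log2 change -0.31, adjusted p = 0.566). None of 32 genes of oxidative phosphorylation was called by edgeR (0 at an unadjusted p under 0.05, 0 by DESeq2 and 0 by limma-voom), and their median log2 change was -0.02. Among 31 genes of the citrate cycle and fatty acid oxidation 3 (9.68%) were higher, against 5.86% of all genes. They were led by Idh2, the mitochondrial NADP-linked isocitrate dehydrogenase, with 195, 139 and 191 at 3 d, against 54.1, 51.9 and 48.8 CPM at 16 h (log2 change 1.76 ± 0.20, adjusted p = 0.000268).

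Of 22 genes of cholesterol synthesis 9 fell and 1 rose, with a median log2 change of -0.84. Hmgcs1, an early enzyme of the pathway, had 87.5, 102 and 89.8 at 3 d, against 241, 175 and 163 CPM at 16 h (log2 change -1.05 ± 0.21, adjusted p = 0.00761). Msmo1, a sterol oxidase, had 15.9, 25.96 and 22.3 at 3 d, against 89.6, 45.5 and 54.95 CPM at 16 h (log2 change -1.57 ± 0.30, adjusted p = 0.00606). Both were highest in 16 h replicate 1 and did not overlap between the groups, and their NW means were 235 and 82.2 CPM. The count of 9 fell to 2 without 16 h replicate 1 or 3 d replicate 1 and to 4 without 3 d replicate 3. Of the 6 libraries, 3 d replicate 1 had the lowest and 16 h replicate 1 the highest share of keratinocyte markers, and with a keratinocyte score as a covariate 4 cholesterol genes were lower and none higher. The part of keratinocytes in the fall was not tested. Lower calls were 6 with limma-voom, with the replicate number as a block or with only the 6 libraries. They were 10 with DESeq2 and 13 with total-count scaling. Of 25 genes of serine and asparagine synthesis, folate metabolism and tRNA charging 5 were lower and none higher, and 2 were lower without 16 h replicate 1 or 2 or 3 d replicate 2, and 3 without 3 d replicate 1. Mthfd1, a folate enzyme, had 50.4, 49.6 and 44.2 at 3 d, against 121, 148 and 129 CPM at 16 h (log2 change -1.46 ± 0.18, adjusted p = 0.000458). Wars, tryptophanyl-tRNA synthetase, had 85.2, 82.6 and 71.5 at 3 d, against 133, 158 and 152 CPM at 16 h (log2 change -0.89 ± 0.18, adjusted p = 0.00808). Of 19 heat shock genes 5 were lower, among them the mitochondrial chaperonin Hspd1, with 237, 149 and 204 at 3 d, against 368, 502 and 422 CPM at 16 h (log2 change -1.13 ± 0.21, adjusted p = 0.00503), and Hspa4, an HSP70 co-chaperone, with 172, 143 and 149 at 3 d, against 347, 349.9 and 289 CPM at 16 h (log2 change -1.09 ± 0.18, adjusted p = 0.00231). That count fell to 2 without 16 h replicate 2 or 3 or 3 d replicate 1 or 3. Of 19 genes of amino acid transport and polyamine metabolism 1 (5.26%) was higher and 3 (15.8%) lower, against 5.86% and 3.67% of all genes. Their median log2 change was -0.04. Leaving out 1 library gave 0 to 1 lower, and total-count scaling and DESeq2 gave 5. The higher one was Slc38a4, a neutral amino acid transporter, with 121, 68.6 and 71.5 at 3 d, against 5.97, 4.31 and 15.6 CPM at 16 h (log2 change 3.33 ± 0.45, adjusted p = 0.000704).

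Genes that respond to glucocorticoids or follow the circadian clock gave 5 lower and no higher calls of 25, and 3 lower calls without 3 d replicate 1 or 16 h replicate 1 or 2. The metallothioneins Mt1 and Mt2, which bind zinc, were among the lower. Mt1 had 744, 822 and 766 at 3 d, against 2637, 2185 and 1589 CPM at 16 h (log2 change -1.46 ± 0.28, adjusted p = 0.00638). Mt2 had 451, 431 and 466 at 3 d, against 1812, 1560 and 1267 CPM at 16 h (log2 change -1.78 ± 0.26, adjusted p = 0.00115). The 3 d libraries of both lay close together and below their NW means of 1972 and 1209 CPM. Nr1d1, the clock repressor REV-ERB alpha, had 26.5, 28.7 and 40.2 at 3 d, against 96.5, 138 and 90.7 CPM at 16 h (log2 change -1.77 ± 0.37, adjusted p = 0.0092). The labels give no time of day for tissue collection, so the interval after wounding and the hour of collection cannot be told apart for clock genes.

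Retinoic acid genes moved in both directions. Aldh1a2 and Aldh1a3 make retinoic acid from retinal. Aldh1a2 had 3.54, 2.52 and 1.05 at 3 d, against 25.6, 21.7 and 22.4 CPM at 16 h (log2 change -3.29 ± 0.56, adjusted p = 0.00454). Aldh1a3 had 21.04, 17.2 and 19.4 at 3 d, against 108, 151 and 167 CPM at 16 h (log2 change -2.88 ± 0.36, adjusted p = 0.000462). Cyp26b1, which degrades retinoic acid, had 11.6, 11.8 and 11.2 at 3 d, against 43.5, 38.3 and 56.5 CPM at 16 h (log2 change -2.0 ± 0.34, adjusted p = 0.00294). All 3 separated the groups, and Aldh1a2 had no reads in NW skin. Aldh1a1, a further retinal dehydrogenase, went the other way, with 56.9, 108 and 48.3 at 3 d, against 32.4, 25.4 and 16.6 CPM at 16 h (log2 change 1.52 ± 0.36, adjusted p = 0.0191), a call lost without replicate 2 of either group or 16 h replicate 3 (adjusted p up to 0.102). In all, 4 of 26 genes of the retinoid and homeobox list were higher and 4 lower, and the higher calls fell to 1 without 3 d replicate 2 or 16 h replicate 2 and to 2 without replicate 1 of either group or 16 h replicate 3, with 8 by DESeq2.

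Of 20 adventitial markers 3 were higher and 1 lower. The lower call was lost without any library but 16 h replicate 1, and 5 were higher without 3 d replicate 3, with no filter or with only the 6 libraries. Cd248, endosialin, had 927, 1090 and 469.7 at 3 d, against 275, 353 and 245 CPM at 16 h (log2 change 1.51 ± 0.29, adjusted p = 0.00651). Cd34 had 789.9, 1008 and 555 at 3 d, against 344, 333 and 342 CPM at 16 h (log2 change 1.21 ± 0.24, adjusted p = 0.00681). Nt5e, the ecto-enzyme CD73, had 53.8, 59.3 and 42.6 at 3 d, against 13.8, 8.8 and 8.82 CPM at 16 h (log2 change 2.31 ± 0.32, adjusted p = 0.000815). Pi16, a marker of the same state, had 994, 766 and 470.3 at 3 d, against 533, 418 and 703 CPM at 16 h (log2 change 0.43, adjusted p = 0.436). Cd34 and Nt5e had NW means of 1310 and 80.2 CPM, above their 3 d means. Of 22 general fibroblast genes 4 (18.2%) were higher and 2 (9.09%) lower, beside the same shares of all genes. Gsn, gelsolin, which severs actin filaments, had 2386, 4382 and 2671 at 3 d, against 13180, 13830 and 11670 CPM at 16 h (log2 change -2.03 ± 0.30, adjusted p = 0.00119) and an NW mean of 17600 CPM. Pdpn, podoplanin, a surface protein of activated stroma, had 197, 137 and 159.8 at 3 d, against 504, 580.2 and 575 CPM at 16 h (log2 change -1.75 ± 0.27, adjusted p = 0.00177) and an NW mean of 75.8 CPM. Both fell between the times, Gsn further below its NW level and Pdpn towards it. Pdgfra, the PDGF receptor of most dermal fibroblasts, stood at 504, 488 and 283 at 3 d, against 803, 889 and 550.5 CPM at 16 h (log2 change -0.81, adjusted p = 0.156).

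Single genes outside those groups also moved. Ctsh, a lysosomal cathepsin, had 749, 656 and 752 at 3 d, against 139, 87.7 and 149 CPM at 16 h (log2 change 2.52 ± 0.31, adjusted p = 0.000414). Psmd11, a proteasome subunit, had 173, 152 and 167 at 3 d, against 276, 325 and 298 CPM at 16 h (log2 change -0.87 ± 0.17, adjusted p = 0.00779). Gclc, which limits glutathione synthesis, had 41.8, 68.5 and 49.4 at 3 d, against 127, 117 and 104 CPM at 16 h (log2 change -1.12 ± 0.23, adjusted p = 0.00905), and 3 of 23 NRF2 targets were lower in all with none higher. That count fell to 1 without 3 d replicate 1 or 2 or 16 h replicate 1 or with no filter, and rose to 6 with total-count scaling, while DESeq2 called 2 higher and 4 lower. Nrp1 and Nrp2, receptors of semaphorins and VEGF, had 160.2, 176 and 110 at 3 d, against 67.9, 76.7 and 66.9 CPM at 16 h (log2 change 1.08 ± 0.20, adjusted p = 0.00532) for Nrp1 and 45.3, 67.5 and 51.7 at 3 d, against 16.7, 16.3 and 9.26 CPM at 16 h (log2 change 1.96 ± 0.41, adjusted p = 0.00908) for Nrp2.

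Markers of other cell types were measured beside these changes. The summed level of 13 pericyte and smooth muscle markers was 165 to 232 CPM at 3 d, against 37.4 to 68.3 CPM at 16 h, and 4 of the 12 tested rose (Actg2, Ndufa4l2, Kcnj8 and Des). Kcnj8, a potassium channel subunit of pericytes, had 8.3, 13.4 and 4.66 at 3 d, against 1.17, 2.02 and 1.07 CPM at 16 h (log2 change 2.62 ± 0.46, adjusted p = 0.00343). Des, desmin, had 21.5, 19.96 and 14.4 at 3 d, against 4.57, 5.03 and 3.86 CPM at 16 h (log2 change 2.05 ± 0.43, adjusted p = 0.00989). Notch3 and Cspg4, other pericyte genes, were not called (log2 change -0.44, adjusted p = 0.609 for Notch3, log2 change 1.54, adjusted p = 0.173 for Cspg4). Their part in the rise of Acta2 and the other contractile genes was not tested, and in NW skin the same sum was 304 to 347 CPM while Acta2 averaged 8.53 CPM. The keratinocyte sum was 992 to 14240 CPM at 3 d, against 8798 to 15920 CPM at 16 h. Of 21 markers tested 20 had negative log2 changes and 1 a positive one, with a median of -0.653. In all, 1 was called higher and 1 lower (4.76% each, against 5.86% and 3.67% of all genes). The lower one was Ivl, involucrin, with 0, 1.01 and 1.41 at 3 d, against 5.54, 6.72 and 6.61 CPM at 16 h (log2 change -2.95, adjusted p = 0.0455), a call lost without 3 d replicate 2 or 3 or any 16 h library (adjusted p up to 0.111). Krt79, a keratin of sebaceous and upper follicle epithelium, was the higher one, with 5.74, 350.5 and 226 at 3 d, against 1.77, 1.05 and 0.0336 CPM at 16 h (log2 change 7.66 ± 1.40, adjusted p = 0.00469), so that 3 d replicate 1 was far below the other 3 d libraries, and limma-voom did not call it (adjusted p = 0.237). Without 3 d replicate 1, the library with few keratinocyte counts, 268 genes were lower and, as above, 549 were higher. With a keratinocyte score as a covariate 714 were higher and 394 lower.

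Among leukocyte markers, the macrophage sum was 101 to 144 CPM at 3 d, against 69.2 to 145 CPM at 16 h. Only 1 of 21 markers (4.76%, against 5.86% of all genes) was higher. That was Csf1r, the receptor of CSF1, with 58, 42.7 and 45.8 at 3 d, against 21.9, 13.9 and 13.96 CPM at 16 h (log2 change 1.56 ± 0.34, adjusted p = 0.0119), a call lost without 3 d replicate 1 or 16 h replicate 2 or 3 (adjusted p up to 0.0605). Neutrophil markers summed to 95.4 to 216 CPM at 3 d, against 104 to 206 CPM at 16 h, with only Mmp9, gelatinase B, called of 9 (log2 change 2.59, adjusted p = 0.0471, lost without 3 d replicate 2 or 3 or 16 h replicate 1 or 2 at an adjusted p of up to 0.158). Mmp9 ran against most of its list: 7 of the 9 log2 changes were negative and 2 positive, with a median of -1.39. Total-count scaling, limma-voom and DESeq2 each called 1 neutrophil marker lower. S100a8 and S100a9, the defining neutrophil genes, did not exceed 1.23 CPM at 3 d or 4.23 CPM at 16 h. Endothelial markers summed to 54.3 to 139 CPM at 3 d, against 91.9 to 107 CPM at 16 h, and Plvap, a protein of vessel fenestrae, was the single call of 14, with 2.04, 3.57 and 3.36 at 3 d, against 19.8, 17.7 and 22.1 CPM at 16 h (log2 change -2.73 ± 0.48, adjusted p = 0.00363). That 1 lower call was 7.14% of those tested, against 3.67% of all genes. Most of the 14 moved the other way: 10 log2 changes were positive and 4 negative, with a median of 1.77. DESeq2 called 3 endothelial markers higher and 1 lower. No marker of lymphocytes (2 tested), Schwann cells and melanocytes (8), adipocytes (8) or red cells (1) was called by edgeR. At an unadjusted p under 0.05 there were 2 Schwann cell and melanocyte markers and 1 adipocyte marker, and DESeq2 called 1 of the Schwann cell and melanocyte list. Of the muscle list 1 of 9 was called, which was Des again. Cd3e, Cd8a, Ms4a1, Pax7 and 5 red cell genes had no count in any of the 6 libraries.

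The mean of the 1.5 d libraries was between the 3 d and the 16 h means for 773 (88.5%) of the genes that rose and 509 (93.1%) of those that fell, against 48.5% of all genes tested, a share that the choice of genes with well separated ends favours. The timing differed among the genes. Birc5 and Ccnb2 had 1.5 d means of 35.1 and 63.01 CPM, near their 3 d levels, and Ncl had 641 CPM at 1.5 d, also near its 3 d level. Lrrc15, Acta2 and Postn had 1.5 d means of 47.7, 45.7 and 1243 CPM, far nearer to 16 h. Il6 had 1077 CPM at 1.5 d, close to 16 h, although its 3 libraries at 1.5 d differed by more than 2-fold. These positions are descriptions of means and were not tested.

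**Figure D4:**
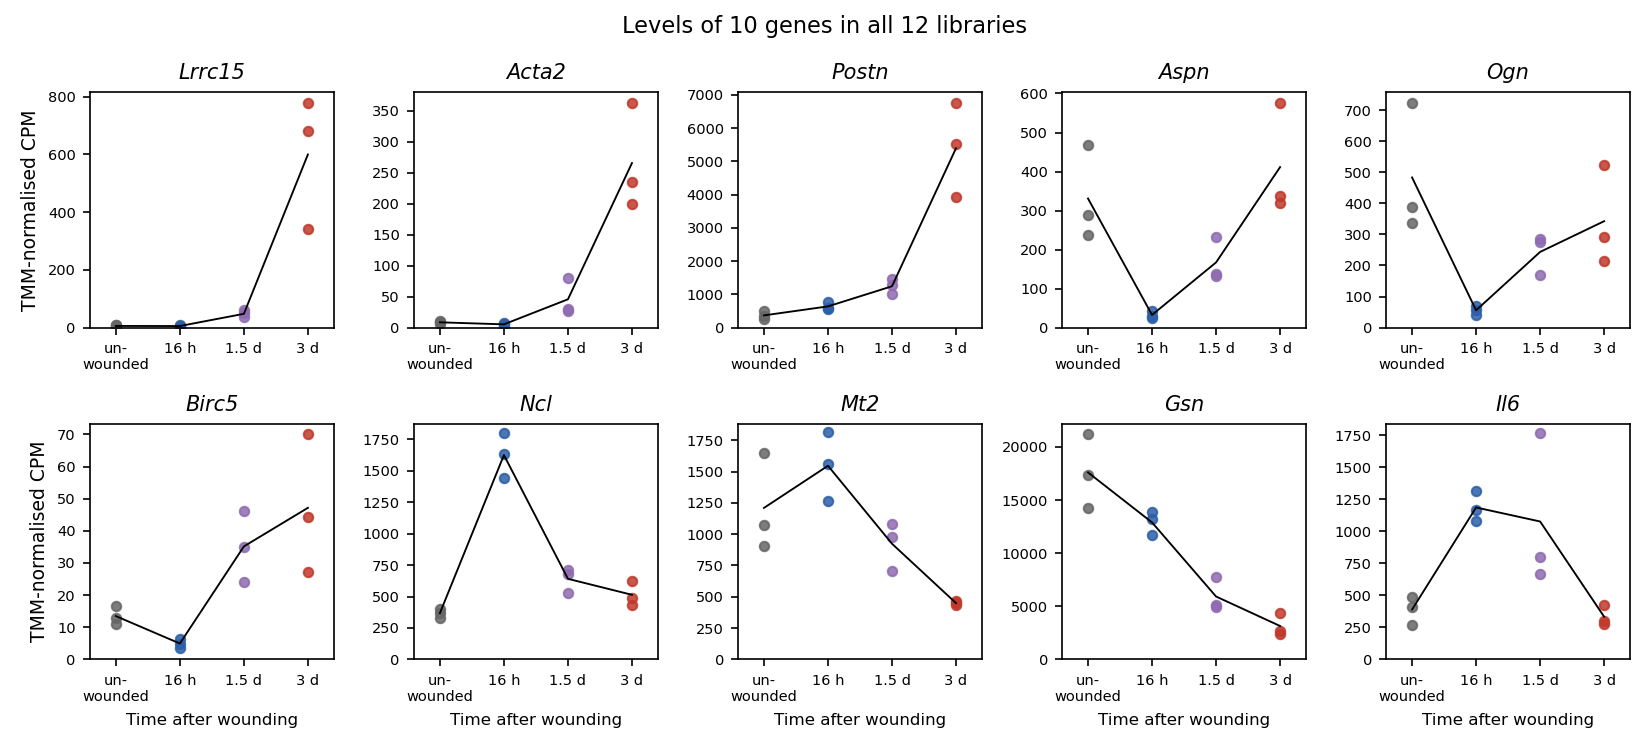
TMM-normalised CPM (linear axes from 0) of 10 genes in unwounded skin and 16 h, 1.5 d and 3 d after wounding; each point is a library, 3 per group, and the line joins the group means. Lrrc15, Acta2 and Postn are highest in the 3 d libraries, with 1.5 d means far below them. Aspn and Ogn fall to their lowest means at 16 h and are higher again at 3 d, where the mean of Ogn is still below its unwounded mean, and Ncl is highest at 16 h.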

How the data were processed

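The deposited values are whole-number counts of read pairs per gene symbol, not normalized, made by the authors with featureCounts 2.0.0 over exons of a RefSeq gene annotation of mm10, per the file headers. STAR, SAMtools, Subread and Partek are named in the submitters' processing notes without versions. The SMART-Seq v4 and Nextera XT libraries keep no strand, so reads of overlapping genes cannot be told apart. Of 360 genes the naming rule covers, 46 share exon sequence with another gene.

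Counts were filtered with filterByExpr (14901 genes kept), scaled by TMM and fitted with edgeR 4.0.16 in R 4.3.3, robustly and over all 12 libraries, and the 3 d minus 16 h contrast was tested by quasi-likelihood, two-sided, with Benjamini-Hochberg adjustment. SEs are approximate, back-calculated from the change and its F. The script was tested on simulated counts. Alternatives included DESeq2 1.42.0 and limma-voom (limma 3.58.1).

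The comparison, the 51 gene lists (41 of fibroblast programmes, 10 of other cells) and the members were chosen with earlier results of these data known. Genes were named by rule: a panel; the 15 largest rises and falls with at least 20 CPM in the higher group and no overlap; and in each list the 5 smallest p and 3 highest levels. Aldh1a1, Cspg4, Dkk2, Dkk3, Fhl2, Loxl4, Notch3 and Pcolce2 were chosen after their values were seen. At 26389453 to 31450940 counts per library, 3 counts correspond to at most 0.114 CPM, which limits precision for genes of low level.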

Additional observations from a re-analysis of the deposited data

How the results depend on the processing

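The counts of genes higher and lower at 3 d kept within 1.5 times of 873 and 547 under median-of-ratios scaling (902 and 457), without Rn45s (873 and 547), without a filter on low counts (888 and 387), with a stricter filter (883 and 615), with only the 6 libraries of the 3 d and 16 h groups (902 and 481), with limma-voom (916 and 547) and with a keratinocyte score as covariate (714 and 394). Total-count scaling gave 703 higher and 971 lower, and DESeq2 gave 1455 higher and 897 lower; the cause was not tested. Leaving out 1 library gave 523 to 716 higher and 203 to 331 lower, with 1 group then at 2 samples. Of 200 named genes that were called, 122 kept the call under all 16 alternatives and none changed sign.

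Deviations from the group means of same-numbered 3 d and 16 h libraries correlated at -0.158, 0.00817 and 0.0928 for numbers 1, 2 and 3. Those of differently numbered libraries correlated at -0.159 to 0.145. Deviations of 3 libraries from their own mean are not independent, so these values cannot exclude a batch shared by number. With the replicate number as a block 681 genes were higher and 333 lower, and 31 of the 200 named calls were lost.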
